A study of Mus musculus with 8 samples.

Results

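The expression of 10 genes that describe heart fibroblasts was followed in hearts of mice given PE: 6 that mark resting fibroblast identity (Pi16, Pdgfra, Tcf21, Ddr2, Thy1 and Dpt) and 4 that mark activation (Fap, Meox1, Cilp and Cthrc1). They were chosen by symbol, and each is read by the 1 probe set annotated with that symbol alone, so that 10 of 19938 measured genes are described. The animals were 9 weeks old and of C57Bl6 background, with 1 Affymetrix array per animal and 2 animals per group. The groups were homozygous Gata4 S105A mutants given PE (arrays 7 and 8), untreated S105A mutants (arrays 5 and 6), wild-type (WT) mice given PE (arrays 3 and 4) and untreated WT mice (arrays 1 and 2). S105A replaces a serine by alanine in the cardiac transcription factor GATA4. The labels spell PE out as pseudoephedrine, and a subcutaneous osmotic pump released it over 5 days, each day 100 mg for every kg of body weight; the protocol names saline as the alternative, whereas the titles call the controls untreated. The samples are whole hearts by title and ventricles by tissue field, and hold every cell type of the heart. Values are log2 expression values, and a difference of 1 is a doubling; 2 arrays per group limit the precision of every comparison.

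Fibroblasts build and maintain the collagen network between heart muscle cells. At rest they are recognised by surface receptors such as PDGFRA and by the transcription factor TCF21, and one adventitial population carries PI16. After injury or pressure load they divide, secrete matrix and switch on a further set of genes, among them Postn, Fap, Meox1, Cilp and Cthrc1, and some of them take on contractile proteins as myofibroblasts.

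The values of the 6 identity genes ran from 7.10 (Tcf21 in array 4) to 11.43 (Dpt in array 7), above the array medians of 6.18 to 6.23. Of the activation genes, Fap lay below these medians in the untreated arrays (5.70 to 6.06) and Cthrc1 close to them (6.16 to 6.47). No detection calls were used, so whether these untreated values stand above background is not known. In RNA from whole tissue, more cells of a type and more RNA per cell cannot be told apart.

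Arrays 3 (WT) and 7 (S105A) stood apart from the other PE arrays. On the first principal component of all 19938 genes, which held 69.5% of the variance, array 7 lay at 25.1 and array 8 at -5.00, array 3 at 53.3 and array 4 at -0.41, and the untreated arrays between -20.8 and -16.1. Values without arrays 3 and 7 are therefore given for the 10 genes, and for the further lists by their counts, medians and examples.

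Promoter sequence was available for 6 of the 10 genes (Pi16, Pdgfra, Tcf21, Ddr2, Dpt and Cilp) as RefSeq windows of 300 bases in build GRCm38.p6, with 250 bases before and 50 after the annotated start. Because the mutated protein binds GATA letters and TCF21 is an E-box binding protein, the windows were searched on both strands for GATA (either AGATAA or AGATAG, or else TGATAA or TGATAG), the E-box CANNTG and the AP-1 letters TGANTCA. The windows printed here, 5′ to 3′ in lower case with GATA and E-box matches in capitals, belong to the identity genes with an unadjusted p under 0.05 between genotypes (Pi16 and Ddr2), the one with the smallest PE difference (Tcf21) and an activation gene (Cilp): Pi16 (plus strand, chr17:29318632-29318931), Ddr2 (minus strand, chr1:170088895-170089194), Tcf21 (minus strand, chr10:22820094-22820393) and Cilp (plus strand, chr9:65264930-65265229).
Pi16: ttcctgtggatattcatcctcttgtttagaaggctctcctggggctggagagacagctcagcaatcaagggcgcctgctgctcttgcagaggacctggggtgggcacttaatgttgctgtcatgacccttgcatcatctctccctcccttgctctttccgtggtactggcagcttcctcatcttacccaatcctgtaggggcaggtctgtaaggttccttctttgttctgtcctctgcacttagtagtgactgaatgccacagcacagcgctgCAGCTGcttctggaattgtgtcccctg
Ddr2: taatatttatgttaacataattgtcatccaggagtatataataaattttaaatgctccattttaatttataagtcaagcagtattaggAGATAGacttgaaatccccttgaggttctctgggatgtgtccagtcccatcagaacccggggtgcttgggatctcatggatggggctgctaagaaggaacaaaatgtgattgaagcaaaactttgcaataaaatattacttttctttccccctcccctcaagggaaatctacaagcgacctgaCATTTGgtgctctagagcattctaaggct
Tcf21: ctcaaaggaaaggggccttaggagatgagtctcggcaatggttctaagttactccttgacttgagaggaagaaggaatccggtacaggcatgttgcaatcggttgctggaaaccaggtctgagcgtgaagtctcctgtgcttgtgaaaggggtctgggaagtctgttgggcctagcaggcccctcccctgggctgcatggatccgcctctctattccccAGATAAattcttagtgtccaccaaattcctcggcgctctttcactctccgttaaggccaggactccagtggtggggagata
Cilp: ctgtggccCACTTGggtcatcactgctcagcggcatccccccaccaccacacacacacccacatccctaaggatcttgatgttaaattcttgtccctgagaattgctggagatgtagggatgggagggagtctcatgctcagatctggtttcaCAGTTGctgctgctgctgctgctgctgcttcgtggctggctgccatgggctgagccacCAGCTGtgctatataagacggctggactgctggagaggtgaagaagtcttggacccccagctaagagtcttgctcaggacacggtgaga
GATA letters were found in 2 of the 6 windows, Tcf21 (AGATAA at position -31 from the start) and Ddr2 (AGATAG at position -162), against 29.8% of all 32851 windows. E-box letters were found in 5 of 6, with 7 in Dpt, 3 in Cilp, 2 in Pdgfra, 1 each in Pi16 and Ddr2 and 0 in Tcf21, against 72.3% of all windows. AP-1 letters were found in 0 of 6, against 7.81% of all windows. A match describes the letters and is no evidence of binding.

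The first question was whether fibroblast genes differed between PE and untreated hearts. Averaged over the genotypes, all 10 genes had positive differences, with 44% of all genes above 0. The 6 identity genes had a median of 0.41, the 4 activation genes one of 1.56 and all 19938 genes one of -0.02. The 4 PE arrays lay above all 4 untreated arrays for 6 of the 10 genes (Pi16, Pdgfra, Ddr2, Fap, Cilp and Cthrc1), as for 6.7% of all genes. None of the 10 passed an adjusted p of 0.05 by limma (adjusted p from 0.275 to 0.622), a threshold that 0.00502% of all genes passed, and 7 of 10 had an unadjusted p under 0.05 with a positive difference, with 9.31% of all genes. The genes were chosen with earlier results of these data known, so these counts describe them and are no independent evidence. The calls depended on which arrays were used: without array 4, 8 of the 10 passed averaged over genotypes (20.7% of all genes passed), 4 in WT (17.8%) and 1, Cthrc1, in S105A minus WT with PE (3.57%). In that setting the gap between arrays 3 and 4 no longer entered the spread. Without arrays 3 and 7 each gene's own spread comes only from the 4 untreated arrays, so no spread between PE animals is measured. Only differences are therefore given for it, with averaged values of 0.54 for Pi16 and 1.32 for Cthrc1.

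**Figure D1:**
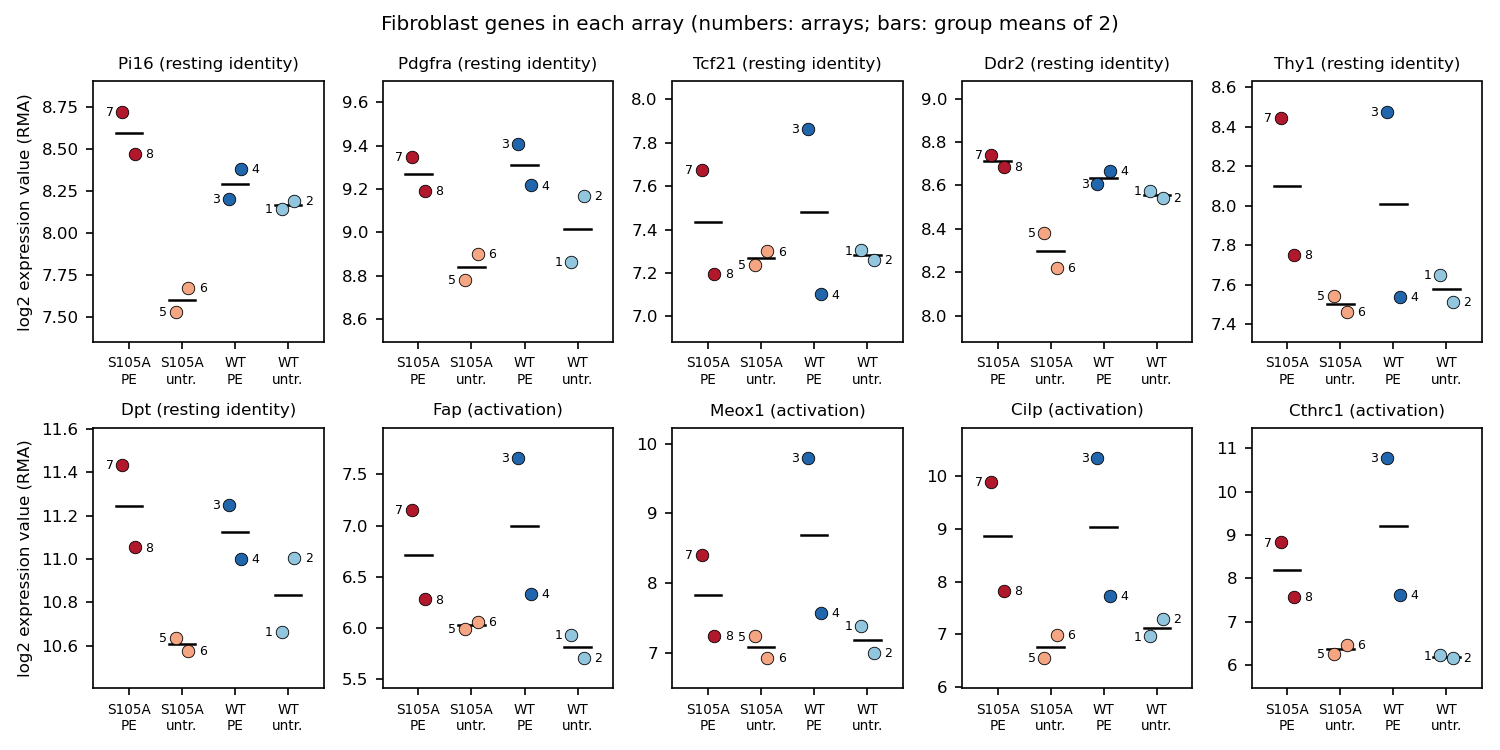
Log2 expression value (y axis, a scale of its own per gene) of the 10 fibroblast genes in the 4 groups (x axis), with 1 numbered point per array and a bar at the mean of 2. Arrays 3 and 7 are the highest for every gene but Pi16 and Ddr2, for which arrays 7 and 8 are the highest and all PE arrays lie above all untreated ones.

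Among the activation genes, Cthrc1 (probe set 10423836), which encodes a secreted protein with collagen-like repeats that marks activated fibroblasts of the infarcted mouse heart, had the largest averaged difference of the 10 genes. Its value was 8.83 and 7.57 in S105A PE hearts (arrays 7 and 8), against 6.26 and 6.47 in S105A untreated hearts (arrays 5 and 6). In WT hearts it was 10.77 and 7.63 with PE (arrays 3 and 4), against 6.22 and 6.16 untreated (arrays 1 and 2). Every PE array thus lay above every untreated array, but array 3 lay 3.14 above its partner, more than the difference between array 4 and the untreated arrays. Averaged over genotypes the difference was 2.42 (SE 0.66, 5.36-fold, limma adjusted p = 0.275), and 1.32 without arrays 3 and 7.

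Cilp (probe set 10586357) encodes cartilage intermediate layer protein, a matrix protein. It measured 9.88 and 7.83 in S105A PE hearts, against 6.55 and 6.99 in S105A untreated hearts. In WT hearts it measured 10.34 and 7.73 with PE, against 6.96 and 7.29 untreated. Again all PE arrays were above all untreated arrays, with arrays 3 and 7 more than 2 units above arrays 4 and 8. PE minus untreated was on average 2.00 (SE 0.65, 3.99-fold, limma adjusted p = 0.281), and 0.83 without arrays 3 and 7.

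Meox1 (probe set 10391504), a homeobox transcription factor described in mice as a switch of fibroblast activation in the stressed heart, did not separate the groups completely. Its values were 8.41 and 7.24 in S105A PE hearts and 7.23 and 6.92 in S105A untreated hearts. They were 9.79 and 7.57 in WT PE hearts and 7.38 and 6.99 in WT untreated hearts. Array 8 thus stood level with array 5 and below array 1. The averaged difference of 1.12 (SE 0.50, 2.17-fold, limma adjusted p = 0.308) was 0.27 without arrays 3 and 7.

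Fap (probe set 10483081), the membrane serine protease fibroblast activation protein, had a smaller difference without overlap. It stood at 7.15 and 6.28 in S105A PE hearts, against 5.99 and 6.06 in S105A untreated hearts. WT hearts had 7.66 and 6.33 with PE, against 5.93 and 5.70 untreated. Arrays 4 and 8 were only slightly above the highest untreated array. The averaged difference was 0.93 (SE 0.31, 1.91-fold, limma adjusted p = 0.281), and 0.38 without arrays 3 and 7.

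The resting identity genes followed 2 patterns. Pi16, Pdgfra, Ddr2 and Dpt had differences of 0.25 to 0.54 also for arrays 4 and 8 alone against the untreated arrays, whereas Thy1 and Tcf21 were high mainly in arrays 3 and 7. Pi16 (probe set 10443494), a secreted peptidase inhibitor, had 8.72 and 8.47 in S105A PE hearts, against 7.53 and 7.67 in S105A untreated hearts. In WT hearts the same gene had 8.20 and 8.38 with PE, against 8.14 and 8.19 untreated. The WT arrays with PE were only just above the untreated ones, while the S105A arrays with PE were the highest and those without it the lowest of all 8. Averaged over genotypes the difference was 0.56 (SE 0.08, 1.47-fold, limma adjusted p = 0.275), and 0.54 without arrays 3 and 7.

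Ddr2 (probe set 10359929), a receptor tyrosine kinase that binds fibrillar collagen, had the same groups at the top and bottom on a smaller scale. Its values were 8.74 and 8.69 in S105A PE hearts and 8.38 and 8.22 in S105A untreated hearts. In WT hearts they were 8.61 and 8.67 with PE and 8.57 and 8.54 untreated. The 4 PE arrays spanned only 0.13 units. PE minus untreated was on average 0.25 (SE 0.06, 1.19-fold, limma adjusted p = 0.275), and 0.25 without arrays 3 and 7.

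Pdgfra (probe set 10522503), the receptor for platelet-derived growth factors that marks resident heart fibroblasts, measured 9.35 and 9.19 in S105A PE hearts, against 8.78 and 8.90 in S105A untreated hearts. With PE the WT hearts had 9.41 and 9.22, against 8.86 and 9.17 without it. All PE arrays were above all untreated arrays, array 8 over array 2 by a small margin. The averaged difference was 0.36 (SE 0.09, 1.29-fold, limma adjusted p = 0.275), and 0.28 without arrays 3 and 7.

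Dpt (probe set 10351293) encodes dermatopontin, a matrix protein that binds decorin. It had 11.43 and 11.05 in S105A PE hearts, against 10.64 and 10.57 in S105A untreated hearts, and 11.25 and 11.00 in WT PE hearts, against 10.66 and 11.01 in WT untreated hearts. The S105A groups did not overlap, while array 4 lay level with array 2. Averaged over genotypes the difference was 0.46 (SE 0.12, 1.38-fold, limma adjusted p = 0.275), and 0.31 without arrays 3 and 7.

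Thy1 (probe set 10584628), the surface glycoprotein CD90 that T cells carry as well, had wide gaps between PE arrays. Its values were 8.44 and 7.75 in S105A PE hearts, against 7.54 and 7.46 in S105A untreated hearts, and 8.48 and 7.54 in WT PE hearts, against 7.65 and 7.51 in WT untreated hearts. Array 8 lay just above all untreated arrays and array 4 among them. The averaged difference of 0.51 (SE 0.23, 1.43-fold, limma adjusted p = 0.316) was 0.10 without arrays 3 and 7. The 10 measured T and B cell genes had a mean level of 5.19 to 5.38 in PE arrays and 5.32 to 5.40 in untreated arrays, both below the array medians. The part of T cells in the Thy1 values was not tested.

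Tcf21 (probe set 10368240), the basic helix-loop-helix factor needed for fibroblast formation in the mouse heart, had the smallest averaged difference of the 10 genes. It stood at 7.67 and 7.19 in S105A PE hearts, against 7.24 and 7.30 in S105A untreated hearts. In WT hearts it stood at 7.86 and 7.10 with PE, against 7.30 and 7.26 untreated. The untreated arrays spanned 0.07 units and the PE arrays 0.76, with arrays 4 and 8 below and arrays 3 and 7 above all untreated arrays. PE minus untreated was on average 0.18 (SE 0.18, 1.14-fold, limma adjusted p = 0.622, 95% interval -0.25 to 0.62), and -0.13 without arrays 3 and 7.

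**Figure D2:**
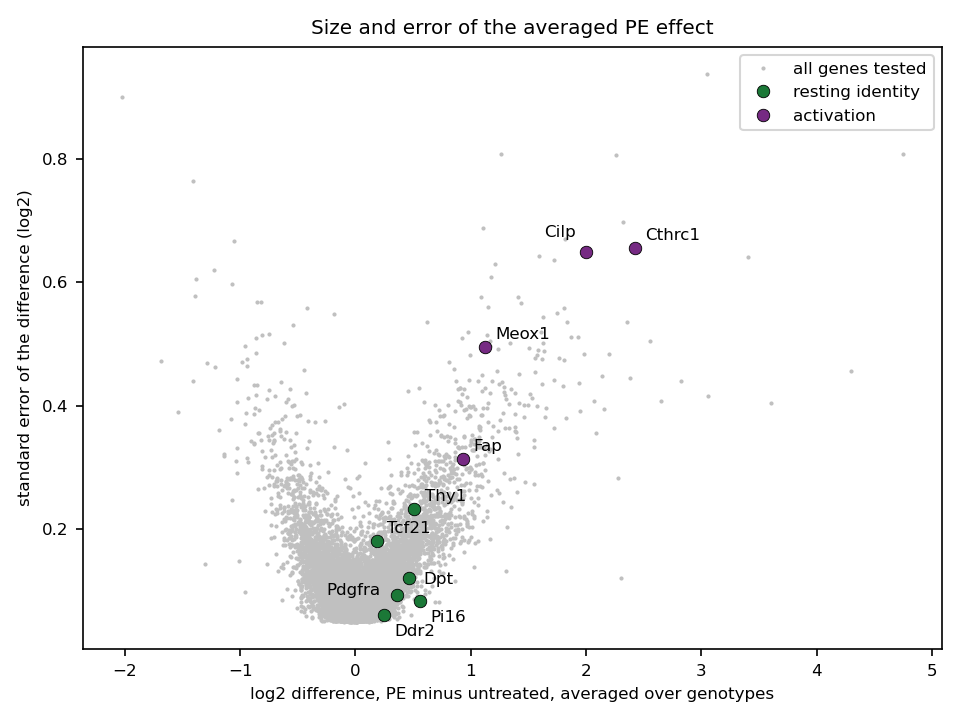
Averaged log2 difference between PE and untreated hearts (x axis) and its standard error (y axis) for all 19938 genes (grey) and the 10 fibroblast genes (coloured by class). The activation genes lie at 0.93 to 2.42 with standard errors of 0.31 to 0.66, the identity genes at 0.18 to 0.56 with standard errors of 0.06 to 0.23.

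The 2 PE animals of a group differed more in the activation genes than in the identity genes. Array 7 exceeded array 8 by a median of 1.22 over the activation genes and 0.32 over the identity genes, and array 3 exceeded array 4 by 2.41 and 0.22. The 2 untreated S105A arrays differed by a median of -0.14 over the activation genes (array 5 minus array 6), and the 2 untreated WT arrays by 0.15 (array 1 minus array 2). Over all genes the absolute gap between partners had a median of 0.13 in S105A PE, 0.09 in S105A untreated, 0.16 in WT PE and 0.09 in WT untreated hearts. Over the 4 untreated arrays single fibroblast genes spanned 0.07 (Tcf21) to 0.74 (Cilp) units, so the wide gaps of the activation genes were those of the PE pairs.

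To set the classes side by side, each gene was centred on its WT untreated mean and averaged over its class. The activation class stood at 1.99 and 0.65 in S105A PE hearts (arrays 7 and 8), against -0.07 and 0.03 in S105A untreated hearts (arrays 5 and 6). In WT hearts it stood at 3.06 and 0.73 with PE (arrays 3 and 4), against 0.04 and -0.04 untreated (arrays 1 and 2). All PE arrays were above all untreated arrays. The identity class stood at 0.49 and 0.15 in S105A PE hearts, against -0.22 and -0.22 in S105A untreated hearts, and at 0.39 and 0.08 in WT PE hearts, against -0.04 and 0.04 in WT untreated hearts. It too was higher in each PE array, with the lowest values in the untreated mutants.

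Activation minus identity, as a within-array difference, was 1.00 ± 0.71 in S105A PE, 0.20 ± 0.07 in S105A untreated, 1.66 ± 1.42 in WT PE and 0.00 ± 0.12 in WT untreated hearts (mean ± SD, 2 arrays each). Averaged over genotypes it was 1.23 higher with PE, and 0.73 higher without array 3, 1.73 without array 4 and 0.48 without arrays 3 and 7. No p is given because the classes were set with results of these data known.

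**Figure D3:**
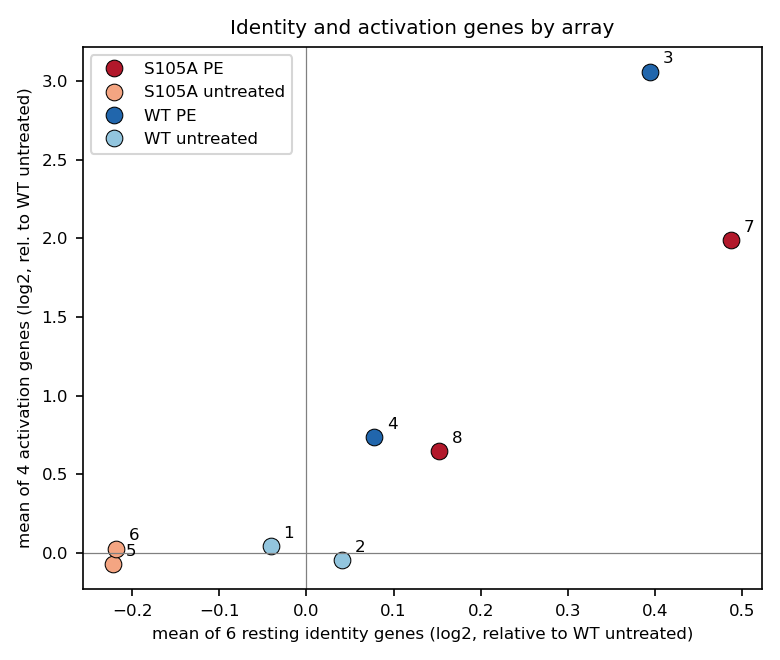
Mean of the 6 resting identity genes (x axis) against the mean of the 4 activation genes (y axis), both log2 relative to WT untreated, with 1 numbered point per array. The untreated arrays lie between -0.07 and 0.04 on the activation axis and the PE arrays between 0.65 and 3.06, while the 2 untreated S105A arrays lie lowest on the identity axis at -0.22.

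The next comparisons took PE against untreated within each genotype. In S105A hearts all 10 genes had positive differences (43.6% of all genes did), and for 9 of them, all but Tcf21, each PE array was higher than each untreated array (20.2% of all genes). The activation genes had differences of 2.09 for Cilp (SE 0.92), 1.84 for Cthrc1 (SE 0.93), 0.75 for Meox1 (SE 0.70) and 0.69 for Fap (SE 0.44). Of the identity genes Pi16 had 1.00 (SE 0.12, 1.99-fold), Dpt 0.64 (SE 0.17), Thy1 0.60 (SE 0.33), Pdgfra 0.43 (SE 0.13), Ddr2 0.41 (SE 0.09) and Tcf21 0.17 (SE 0.26). None passed by limma (adjusted p from 0.765 to 0.867, 0% of all genes passed), and 4 had an unadjusted p under 0.05 with a positive difference (Pi16, Ddr2, Dpt and Pdgfra), with 3.09% of all genes. All 4 are identity genes with standard errors of 0.09 to 0.17, while those of the activation genes were 0.44 to 0.93. The fit gives each gene 1 spread shared by the 4 groups, so its standard error is the same in WT hearts. The groups themselves differed in spread. For Cthrc1 the SD was 0.89 in S105A PE, 0.15 in S105A untreated, 2.22 in WT PE and 0.05 in WT untreated hearts.

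In WT hearts all 10 genes again had positive differences (48.9% of all genes did), and each PE array was higher than each untreated array for 7 of them, all but Tcf21, Thy1 and Dpt (22.7% of all genes). Cthrc1 differed by 3.01 (SE 0.93, 8.05-fold), Cilp by 1.90 (SE 0.92), Meox1 by 1.495 (SE 0.70) and Fap by 1.18 (SE 0.44). The identity genes had 0.43 for Thy1 (SE 0.33), 0.30 for Pdgfra (SE 0.13), 0.29 for Dpt (SE 0.17), 0.20 for Tcf21 (SE 0.26), 0.13 for Pi16 (SE 0.12) and 0.08 for Ddr2 (SE 0.09). By limma 0 of the 10 passed (adjusted p from 0.419 to 0.750, 0.00502% of all genes passed), and 2 had an unadjusted p under 0.05 with a positive difference (Cthrc1 and Fap), with 5.99% of all genes. Without arrays 3 and 7, which leaves 1 PE array per genotype, the difference for Thy1 was -0.04 and for Tcf21 -0.18 in WT, and -0.07 for Tcf21 in S105A. For Cthrc1 it was 1.204 in S105A and 1.44 in WT, for Cilp 1.06 in S105A and 0.60 in WT, for Meox1 0.16 in S105A and 0.38 in WT, and for Fap 0.25 in S105A and 0.51 in WT. Among the other identity genes it was 0.87 in S105A and 0.22 in WT for Pi16, 0.45 in S105A and 0.17 in WT for Dpt, 0.35 in S105A and 0.20 in WT for Pdgfra, and 0.39 in S105A and 0.11 in WT for Ddr2, while Thy1 had 0.25 in S105A. Since each group has its own mean in the fit, the S105A values are those without array 7 alone and the WT values those without array 3 alone.

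**Figure D4:**
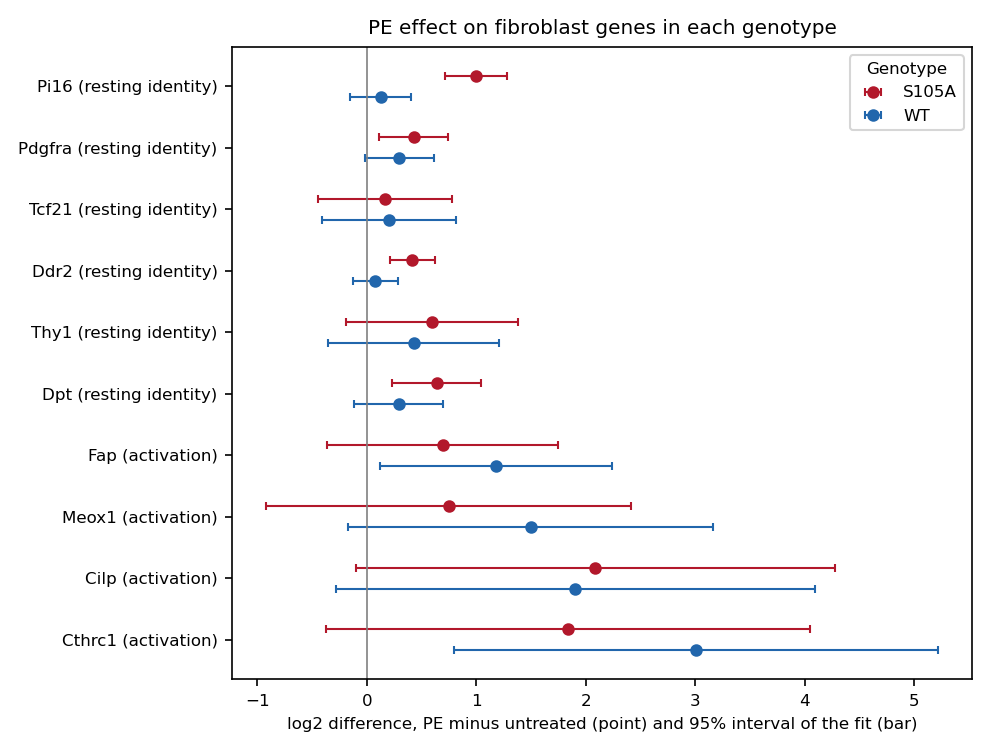
Log2 difference between PE and untreated hearts (x axis, bars are 95% intervals of the fit) for each fibroblast gene (y axis) in S105A (red, upper) and WT (blue, lower). For Pi16 the interval in S105A lies wholly above that in WT, and for the other 9 genes the intervals of the genotypes overlap.

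Whether the PE effect differed between genotypes was tested as the difference of the PE effects, S105A minus WT. Pi16 had the largest positive value, 0.87 (SE 0.17, 95% interval 0.47 to 1.27), followed by Dpt at 0.35 (SE 0.24) and Ddr2 at 0.34 (SE 0.12). Cthrc1 lay on the other side at -1.17 (SE 1.31, 95% interval -4.30 to 1.95). Of the identity genes 5 of 6 had positive values (median 0.25), and of the activation genes 1 of 4 (median -0.62), beside 47.5% of all genes and a median of -0.01. By limma 0 genes passed (adjusted p = 1.00 for each of the 10, 0% of all genes passed), and Pi16 and Ddr2 had an unadjusted p under 0.05 with a positive value, with 0.903% of all genes. The signs of the activation genes depended on the WT PE arrays. Without array 3 all 4 were positive, with 0.40 for Cthrc1, 0.36 for Meox1, 0.18 for Fap and 1.48 for Cilp. Without array 4 all 4 were negative, with -2.75 for Cthrc1, -1.86 for Meox1, -1.15 for Fap and -1.12 for Cilp. The value for Pi16 ran from 0.75 to 1.00 when each array was left out in turn. Without arrays 3 and 7 the value was 0.65 for Pi16, 0.28 for Dpt, 0.28 for Ddr2 and -0.23 for Cthrc1.

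Genotype differences without PE bear on the same genes. In untreated hearts Pi16 averaged 7.60 ± 0.10 in S105A and 8.17 ± 0.04 in WT (SD, 2 arrays each), a difference of -0.57 (SE 0.12). Ddr2 averaged 8.30 ± 0.11 in S105A and 8.56 ± 0.02 in WT, a difference of -0.26 (SE 0.09). Dpt differed by -0.23 (SE 0.17). For these 3 genes both S105A arrays lay below both WT arrays, which held for 22.7% of all genes, and for Fap and Cthrc1 both lay above (21.8% of all genes). Only these 2 of the 10 had positive differences, beside 50.9% of all genes, and Pi16 and Ddr2 had an unadjusted p under 0.05 with a negative difference, with 2.53% of all genes. By limma 0 genes passed (adjusted p from 0.962 to 0.998, 0% of all genes passed). In the same comparison negative differences were found for 13 of 14 macrophage genes (median -0.28), 11 of 12 endothelial genes (median -0.14), 17 of 21 further resting fibroblast genes (median -0.10), 7 of 11 mural cell genes (median -0.10) and 7 of 9 epicardial genes (median -0.07). Among the other lists, negative differences were found for 14 of 22 ligands, receptors and relatives (median -0.05) and 17 of 28 further activation genes (median -0.02). They numbered 8 of 13 for heart muscle (median -0.01), 6 of 10 for T and B cells (median -0.02) and 4 of 8 for atrial genes (median -0.02). Schwann cell genes had 3 of 6 (median -0.02), fat cell genes 3 of 6 (median -0.01) and dividing cell genes 4 of 11 (median 0.04). The part of these cell types in the lower Pi16 and Ddr2 values was not tested.

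With PE 4 of the 10 genes had positive differences, beside 46.9% of all genes. Pi16 averaged 8.60 ± 0.18 in S105A and 8.29 ± 0.13 in WT, a difference of 0.31 (SE 0.12). Ddr2 averaged 8.71 ± 0.04 in S105A and 8.64 ± 0.04 in WT, a difference of 0.08 (SE 0.09). Both S105A arrays lay above both WT arrays for these 2 of the 10 genes, with 10.5% of all genes. Cthrc1 averaged 8.197 ± 0.89 in S105A and 9.199 ± 2.22 in WT, a difference of -1.003 (SE 0.93) that became 0.57 without array 3. Again 0 of the 10 passed by limma (adjusted p from 0.989 to 0.995, 0% of all genes passed), and Pi16 alone had an unadjusted p under 0.05 with a positive difference, with 1.25% of all genes. The difference with PE but without arrays 3 and 7 was 0.09 for Pi16, 0.02 for Ddr2 and -0.06 for Cthrc1. The contrasts share arrays and are not independent of each other.

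Further genes of the fibroblast programme were taken from lists that hold none of the 10. Of 28 further activation genes 26 had positive averaged PE differences (median 1.54), beside 44% of all genes. Their PE arrays all lay above the untreated arrays for 21 of the 28 (6.7% of all genes), 23 had an unadjusted p under 0.05 with a positive difference (9.31% of all genes), and by limma 0 passed the adjusted threshold. Again 26 differences were positive without arrays 3 and 7 (median 0.71), beside 9861 of all 19938 genes (median -0.001). The matrix glycoprotein gene Tnc had 4.30 (SE 0.46), the protease inhibitor gene Timp1 3.60 (SE 0.41), Postn, which encodes the matricellular protein periostin, 3.06 (SE 0.42) and the fibronectin gene Fn1 2.82 (SE 0.44). Tnc had 10.87 and 8.89 in S105A PE hearts and 10.12 and 8.86 in WT PE hearts, against 5.33 to 5.47 in the 4 untreated hearts, so that arrays 4 and 8 were also far above them. Contractile genes of myofibroblasts and smooth muscle, named here after their values were seen, differed among themselves. Acta2 had an averaged difference of 0.05 (SE 0.10), Tagln one of 0.77 (SE 0.32) and Cnn1, from the mural cell list, one of 1.41 (SE 0.58). Tagln had 9.00 and 8.33 in S105A PE hearts and 9.89 and 8.42 in WT PE hearts, against 8.02 to 8.23 in untreated hearts. Myh11, also from the mural cell list, had 8.25 and 8.05 in S105A PE hearts and 7.72 and 8.27 in WT PE hearts. Its untreated values were 8.16 to 8.30. The differences without arrays 3 and 7 were -0.08 for Acta2, 0.24 for Tagln, 0.46 for Cnn1 and -0.08 for Myh11. Within genotypes the list had a median of 1.30 in S105A and 1.83 in WT. The difference of PE effects was below 0 for 25 of the 28 genes (median -0.48), 0 of them with an unadjusted p under 0.05. Among all genes 47.5% had values above 0, with a median of -0.01. Relative to WT untreated, the list mean was 1.85 in array 7 and 0.96 in array 8 (S105A PE). In WT PE hearts it was 2.65 in array 3 and 1.04 in array 4. Array 3 thus lay above both S105A PE arrays, while array 4 lay between them. Without array 3 the WT list mean with PE was below the mean of arrays 7 and 8. The count of 25 genes was not repeated without array 3.

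Of 21 further resting fibroblast genes 12 had positive and 9 negative averaged differences (median 0.14). The PE arrays all lay above the untreated arrays for 6 (6.7% of all genes) and all below for 1 (6.15% of all genes), and by limma 0 passed the adjusted threshold. With arrays 3 and 7 left out, 16 differences were positive and 5 negative (median 0.12), with 1.34 for Mfap5, 0.59 for Lum, 0.27 for Igfbp4 and -0.33 for Vit. The microfibril gene Mfap5 had 2.13 (SE 0.45), the collagen-binding proteoglycan gene Lum 1.06 (SE 0.27) and the insulin-like growth factor binding protein gene Igfbp4 0.50 (SE 0.14). The matrix gene Vit had -0.47 (SE 0.11), with 5.70 and 6.06 in S105A PE hearts and 5.81 and 6.01 in WT PE hearts, against 6.25 to 6.48 in untreated hearts. Within genotypes the median was 0.21 in S105A and 0.08 in WT. The difference of PE effects was above 0 for 18 of the 21 genes (median 0.21), beside 47.5% of all genes (median -0.01). Again 0 of the 21 had an unadjusted p under 0.05. The wider resting list was thus mixed in its PE differences, where the 6 resting genes above all had positive differences.

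Ligands, receptors and relatives of the 10 genes numbered 22 measured, 18 with positive averaged differences (median 0.39, beside 44% of all genes above 0). For 11 of the 22 every PE array lay above every untreated array (6.7% of all genes), and by limma 0 passed the adjusted threshold. The connective tissue growth factor gene Ccn2 had 1.95 (SE 0.39), the transforming growth factor gene Tgfb2 1.58 (SE 0.49), the integrin gene Itgb5 0.89 (SE 0.28) and the receptor gene Tgfbr2 0.52 (SE 0.13). Itgb5 had 11.18 and 10.74 in S105A PE hearts and 12.03 and 10.67 in WT PE hearts, against 10.22 to 10.30 in untreated hearts. Leaving out arrays 3 and 7, 17 of the 22 differences were positive (median 0.16), with 1.27 for Ccn2, 0.74 for Tgfb2, 0.44 for Itgb5 and 0.32 for Tgfbr2.

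The genes nearest to Cthrc1 and Pi16 were sought over all 19938 genes by the root mean square distance between values over the 8 arrays, each gene centred on its own mean. For Cthrc1, whose own values lay 1.52 from their mean, the nearest were the latent TGF-beta binding protein gene Ltbp2 (0.16), Col12a1 (0.23), Sfrp2 (0.26), Thbs4 (0.32) and Col8a1 (0.34). Ltbp2 had 9.77 and 8.36 in S105A PE, 7.06 and 6.95 in S105A untreated, 11.39 and 8.30 in WT PE and 6.95 and 7.15 in WT untreated hearts, with array 3 highest and array 7 next, as in Cthrc1. For Pi16, 0.37 from its mean, the nearest were Neto2 (0.17), Oasl2 (0.17), Apod (0.18), Cd55 (0.19) and Pole2 (0.19). Relative to the gene's own spread these distances were larger than those for Cthrc1.

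Markers of macrophages and of dividing cells had positive differences as well, beside 44% of all genes with averaged differences above 0. The 14 macrophage genes all had positive averaged PE differences (median 0.86), and their mean level was 8.38 to 8.99 in S105A PE, 7.81 to 7.86 in S105A untreated, 8.64 to 9.35 in WT PE and 7.98 to 8.27 in WT untreated hearts. The lysosomal protease gene Ctss had 1.40 (SE 0.26), Adgre1 1.23 (SE 0.26), C1qb 0.97 (SE 0.21) and Fcgr1 0.77 (SE 0.16). Of 11 genes of dividing cells 10 had positive differences (median 1.12), with a mean level of 6.38 to 7.46 in PE and 5.83 to 6.04 in untreated hearts, among them Mki67 at 1.65, Top2a at 1.58, Kif11 at 1.12 and Ube2c at 0.86. Arrays 3 and 7 were the higher of their pairs for both lists. Without them all 14 macrophage genes (median 0.53) and 10 of 11 dividing cell genes (median 0.51) had positive differences, beside 9861 of all 19938 genes. Ctss had 0.95 and Mki67 0.96 in that setting. By limma 0 of the macrophage and dividing cell genes passed, and their part in the fibroblast results was not tested.

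Mural cell genes, which mark pericytes and smooth muscle, had 6 positive and 5 negative differences (median 0.03), with a mean level of 9.57 to 9.72 in PE and 9.47 to 9.61 in untreated hearts. Des had 0.38, Mcam 0.46, Vtn -0.43 and Kcnj8 -0.49. Of 12 endothelial genes 10 had negative differences (median -0.15; 9.59 to 9.89 in PE and 9.81 to 10.05 in untreated hearts), with Kdr at -0.42, Flt1 at -0.34, Tie1 at -0.24 and Esam at -0.17. The median without arrays 3 and 7 was -0.03 for the mural and -0.05 for the endothelial genes, and Kdr had -0.12. Neither list had a gene past the adjusted threshold by limma. Of all genes 44% had averaged differences above 0.

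**Figure D5:**
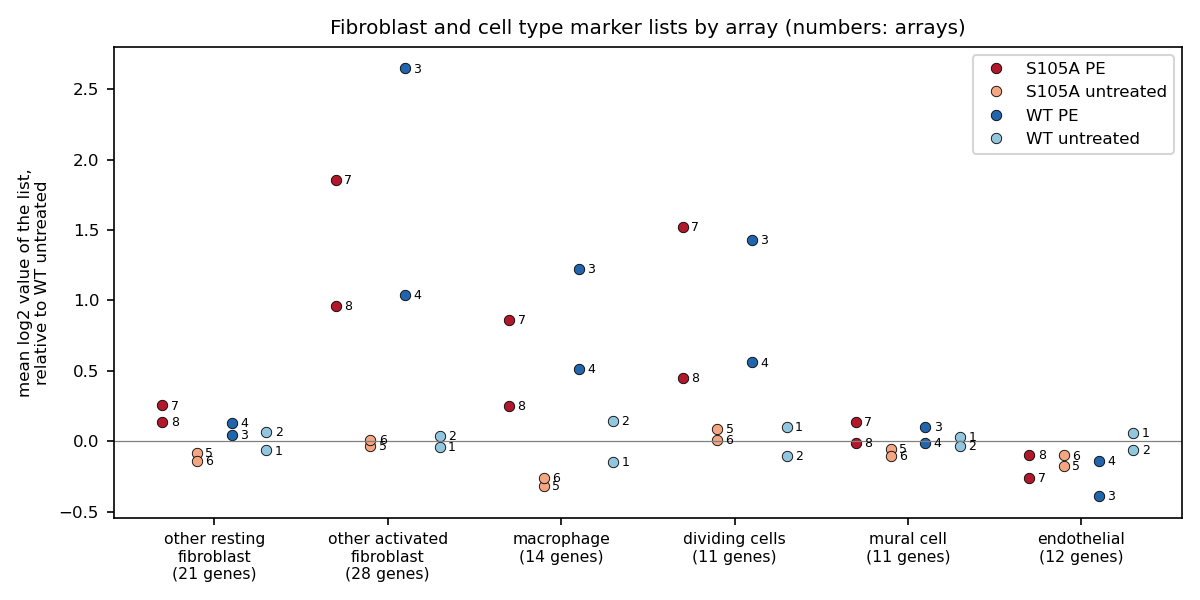
Mean log2 value of 6 gene lists relative to WT untreated (y axis) by list (x axis), with 1 numbered point per array coloured by group. In the other activated fibroblast, macrophage and dividing cell lists arrays 7 and 3 lie above arrays 8 and 4, and these above the untreated arrays, while the other resting fibroblast and mural cell lists stay between -0.14 and 0.25.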

How the data were processed

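Gene expression was measured in 8 mouse hearts, 1 Affymetrix array each. The deposited unit is log2 expression; RMA is the method named per the submitters' processing notes, with no version or build in the sources used here. Because RMA equalises the distributions of arrays, a shift common to most genes cannot be seen. Values ran from 2.63 to 14.45 and array medians from 6.18 to 6.23.

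Of 35557 rows, 21789 had 1 gene symbol, 1621 several and 12147 none; genes were named only from the first kind, by the probe set with the highest mean, which left 19938 genes. Groups were taken from the titles. limma 3.58.1 (R 4.3.3) fitted the means of the 4 groups jointly, with 4 residual and 2.74 prior degrees of freedom, in 6 contrasts, with two-sided p values adjusted by Benjamini-Hochberg over all genes and a threshold of 0.05. Whether 2 arrays of a group share a litter or day is not stated. P-values rest on the spread between these animals within groups, which the fit takes as equal in all 4 groups for each gene. For the activation genes the PE groups were more spread than the untreated groups, so the shared spread does not describe each comparison alike. The fit was tested on simulated data. Alternatives were a filter on low values, other handling of probe sets, further quantile normalization, other variance models, array weights, fewer arrays and no interaction term; leaving out arrays 3 and 7 for the further lists was added after seeing the data.

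The 10 genes, the lists and the alternatives were chosen with earlier results of these data known. Besides all 10 genes, the 4 genes with the smallest unadjusted averaged p were named from each of the lists: further activation and resting fibroblast genes, ligands and receptors, and markers of mural, epicardial, endothelial, macrophage, T and B, Schwann, fat, heart muscle, atrial and dividing cells. For Cthrc1 and Pi16 the 5 nearest profiles were named. Figures were drawn with matplotlib 3.10.9.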

Additional observations from a re-analysis of the deposited data

How the results depend on the processing

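Across the alternatives run, all 10 averaged PE differences kept their sign except that of Tcf21, and activation minus identity (1.23) was 0.48 without arrays 3 and 7 and otherwise 0.73 to 1.73. Without arrays 3 and 7 the number of genes of the 10 past an adjusted p of 0.05 was 2 averaged over genotypes (Pi16 and Cthrc1; 0.687% of all genes passed), 1 in WT (Cthrc1; 0.291%) and 1 in S105A (Cthrc1; 0.15%). Leaving out 1 array at a time, it was 0 to 8 averaged, 0 to 4 in WT and 0 to 1 for S105A minus WT with PE. The counts above 0 all arose without array 4, where 20.7%, 17.8% and 3.57% of all genes passed and the gap between arrays 3 and 4 no longer entered the spread. Without arrays 3 and 7 the signs turned for Tcf21 averaged (-0.13), in WT (-0.18) and in S105A (-0.073) and for Thy1 in WT (-0.042). Over the single arrays left out, Tcf21 ran from -0.0071 to 0.37, from -0.18 to 0.58 and from -0.073 to 0.41, and Thy1 in WT from -0.042 to 0.90. Cthrc1 ran from -2.75 to 0.40 for the difference of PE effects and from -2.57 to 0.57 for S105A minus WT with PE. Where a group keeps 1 array, that array is assumed to vary like the other groups. Of 20 differences given by count or range, 15 turned in at least 1 alternative. The cause was not tested. No paired analysis was possible because the 8 animals carry 8 different numbers.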

Other observations

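Lists of the remaining cell types had small medians of the averaged PE differences, while single genes in them had large ones. The share of all genes with averaged differences above 0 was 44%. Of 9 epicardial genes 4 had positive differences (median -0.03), but Aldh1a2, which encodes a retinoic acid synthesis enzyme, had 1.82 (SE 0.38), with 9.07 and 7.15 in S105A PE hearts and 8.70 and 8.52 in WT PE hearts, against 6.35 to 6.68 in untreated hearts. The epicardial transcription factor gene Wt1 had -0.28, the surface gene Upk3b -0.26 and Krt19 -0.11. Of 10 T and B cell genes 3 had positive differences (median -0.09), with Cd79a at -0.24, Ms4a1 at -0.25, Cd2 at -0.17 and Cd8a at -0.14. Of 6 Schwann cell genes 2 had positive differences (median -0.02), with Prnp at 0.66, S100b at 0.07, Sox10 at -0.06 and Kcna1 at -0.40. Of 6 fat cell genes 1 was positive (median -0.03), with Cidec at 0.07, Adipoq at -0.04, Retn at -0.11 and Fabp4 at -0.25.

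Of 13 heart muscle genes 5 had positive differences (median -0.13), with Nppa at 2.28, Mybpc3 at 0.36 and Ryr2 at -0.12; Myh7 (2.30, limma adjusted p = 0.00808) was the 1 gene of any list past the threshold. Of 8 atrial genes 4 were positive (median 0.00), with Dkk3 at 0.89, Myl4 at 0.29 and Myl7 at -0.16. The medians of these lists without arrays 3 and 7 lay between -0.08 and -0.02, and Aldh1a2 had 1.30, Nppa 1.85, Myh7 2.13, Prnp 0.31, Dkk3 0.16 and S100b -0.02.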
